A study of Danio rerio with 12 samples.

Results

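The brains of adult zebrafish injected with synthetic double-stranded RNA and kept at a constant temperature (Ti) were set against those of control fish that received no injection (C). The members were the 3 Ti arrays and the 3 C arrays, 6 of the 12 single-colour Agilent arrays of the series, and they were chosen by the treatment in the sample labels. The dsRNA was Poly (I:C), given into the body cavity at 1 mg per kg by the labels (the study's methods give a lower dose), and whole brains were taken after 24 h. Each array held 1 pool of 3 brains. The labels place the control fish in a thermal gradient, whereas the study's methods place them outside it, so that by the methods both groups were held without a choice of temperature. No group of fish was injected with saline and kept at a constant temperature, so that in Ti against C the dsRNA and the act of injection cannot be told apart, and the arrays of saline-injected fish kept in a gradient (Sd) are given beside the results for this reason. The design text speaks of 4 independent experiments with different animals and does not say how they map to the 4 groups. In the deposited table of the whole series the columns of both dsRNA groups are exchanged: the 3 Ti columns hold the values of the arrays of dsRNA-injected fish in a gradient (Td), and the 3 Td columns those of the Ti arrays. The scanner output and the table of each sample match each other by label, and that assignment was used. Which assignment is right cannot be settled from the data, so that calls of the genes described that end with the dsRNA arrays exchanged are named below.

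Double-stranded RNA is a product of viral replication, and vertebrate cells sense it with Toll-like receptor 3 in endosomes and with helicases of the RIG-I family in the cytosol. These sensors activate interferon regulatory factors, type I interferon is released, and the interferon receptor acts through JAK kinases and STAT proteins with IRF9 to switch on a large set of antiviral genes, among them the Mx GTPases, viperin and the ISG15 system. In the brain, microglia are the resident macrophages, and they are a major local source of the C1q subunits of complement.

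The 6 arrays differed widely in brightness. The Ti arrays had 20280, 13494 and 6330 of 43803 non-control features well above background and the C arrays had 10725, 17901 and 14408, with no saturated feature. Ti replicate 3 was the dimmest of the 12 arrays, with a 75th percentile of 34.6 intensity units, against 541 and 308 on the other Ti arrays and 125, 391.7 and 264 on the C arrays. The number of features detected averaged 13368 ± 6976 in Ti and 14345 ± 3588 in C (SD, n = 3 each), a difference within the spread of the arrays (exact permutation test, two-sided, p = 0.9, where 3 against 3 arrays cannot go below 0.1). All values below are log2 signals minus the 75th percentile of their array, so that 0 stands for that percentile and a difference of 1 for a 2-fold change. On Ti replicate 3 the dimmest feature well above background lay at 0.86 on this scale, so that its 75th percentile was itself not well above background. On the other Ti and C arrays that feature lay between -2.73 and -0.33. Scaled values of Ti replicate 3 thus rest on a reference near background. Levels of different genes come from different probes and are not compared with each other.

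The called differences between Ti and C were mainly upward. Of 12463 transcripts tested in limma with Benjamini-Hochberg adjustment over all of them, 148 were higher in Ti than in C at an adjusted p under 0.05 (1.19% of those tested) and 20 were lower (0.16%), 1.35% in either direction. At an unadjusted p under 0.01 the counts were 458 higher (3.67%) and 259 lower (2.08%). At an unadjusted p under 0.05 they were nearly equal, with 953 higher and 951 lower. The called rises had a median difference of 2.36 on the log2 scale and ranged between 1.17 and 6.42. Of them, 25 exceeded 16-fold. The called falls had a median of -1.89, the deepest was -6.30, and 8 of them exceeded 4-fold. Over all transcripts the median difference was -0.09 and 43.6% of the differences were positive. The Ti and C arrays of all 168 called transcripts did not overlap, in a background in which 8.08% of all transcripts lay higher and 8.78% lower on every Ti array than on every C array. Each slide of the array platform held 1 array of each group. Where the groups do not overlap, the direction within each of the 3 slides is fixed, so that it adds no support to the 148 rises and 20 falls. With the slide as a block in the model, 236 transcripts were higher and 48 lower. The 50th percentile lay among features not well above background on each of the 6 arrays, since at most 20280 of 43803 features were above that limit. With the 50th percentile of each array in place of the 75th as the scale, the median of all transcripts was -0.72, and 24 transcripts were higher and 13 lower. Of the list members, 6 effectors and 2 JAK-STAT genes were then called higher, and no member of the lists of sensors, complement, microglia, cytokines or the cell cycle. A gene symbol could be given to 81 of the rises and 14 of the falls. The others carry only the name of an array sequence, such as BI845329 (difference 6.34, at least 38.3-fold higher in Ti) and ENSDART00000100935 (difference 6.26, at least 30.0-fold higher in Ti).

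**Figure D1:**
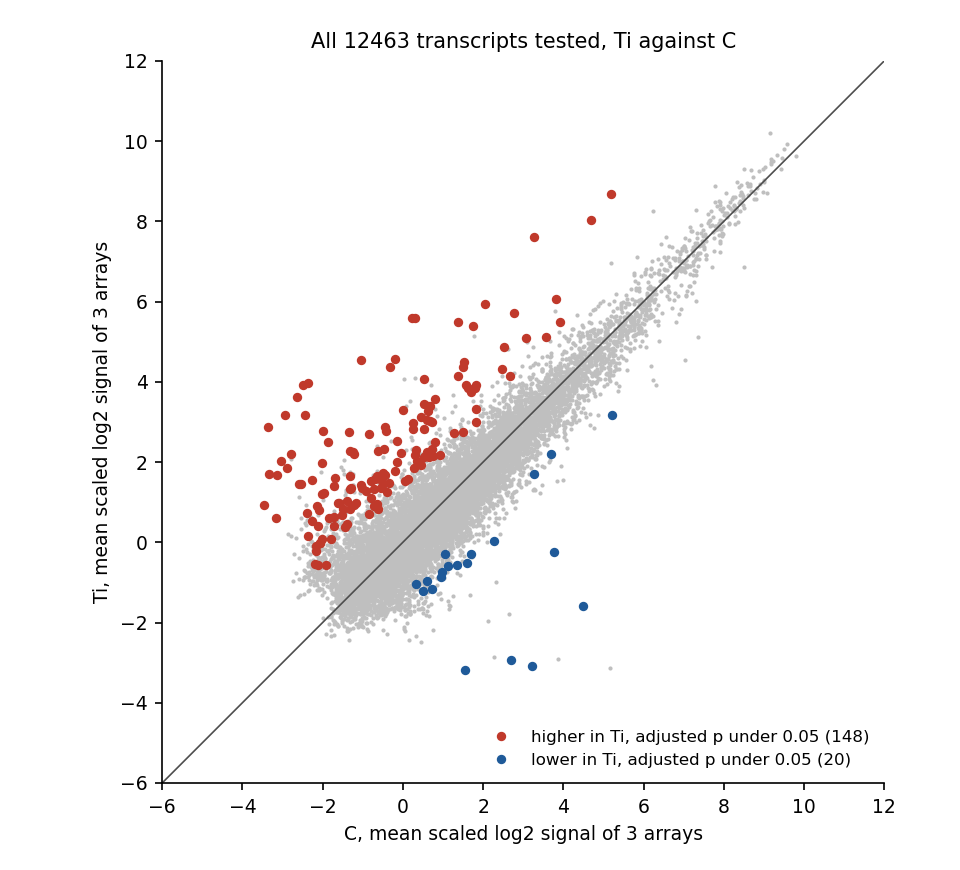
Mean scaled log2 signal of the 3 Ti arrays (vertical axis) against that of the 3 C arrays (horizontal axis) for 12463 transcripts, with the line of equal signal. The 148 transcripts higher in Ti (red) outnumber the 20 lower in Ti (blue), and the largest rises lie at low signal in C.

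Genes that sense dsRNA and carry its signal were led by pkz, a fish protein kinase that binds Z-form nucleic acid and is related to the dsRNA-activated kinase PKR. Its scaled log2 signal was 3.09, 2.63 and 2.92 on the Ti arrays, against -0.04, -0.94 and -0.32 on the C arrays, a difference of 3.31 ± 0.36 (SE; adjusted p = 0.000514), and the 3 Ti arrays lay close together, far above the C arrays. Under scaling by the 50th percentile its difference was 2.69 (adjusted p = 0.0967). It was the only member called of the 8 tested in the list of dsRNA sensors and adaptors, 14 of which are on the array. That call was 12.5% of the tested members, against 1.19% of all transcripts. The median difference of that list was 0.74. The endosomal sensor tlr3 had 1.29, 0.56 and -0.44 on the Ti arrays and -1.17, -0.77 and -0.93 on the C arrays (difference 1.43, adjusted p = 0.107). Its groups did not overlap, but its dimmest Ti array lay near the C arrays. The adaptor mavs differed by 0.79 (adjusted p = 0.301) and the kinase tbk1 by 0.31 with overlapping arrays (adjusted p = 0.792).

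Interferon regulatory factors and JAK-STAT genes included some of the largest rises of the experiment. The list of JAK-STAT genes and interferon regulatory factors had 19 members tested of 27 on the array. Among those tested, irf10 passed the filter on dim signal through the Ti arrays alone. Of the 19 tested, 4 were higher (21.1%, against 1.19% of all transcripts), 3 of them described here, none was lower and the median difference was 1.22. The transcription factor irf7, which amplifies type I interferon production, had 4.51, 5.21 and 3.89 on the Ti arrays, against -0.43, -1.36 and -1.30 on the C arrays. It was low on every C array and well above background on 1 of them only, so that its fitted difference of 5.57 ± 0.60 (adjusted p = 0.000490) rests on C values mostly near background. The regulatory factor irf10 was not well above background on the C arrays, an increase of at least 4.05-fold, with 0.09, -0.47 and 2.58 on the Ti arrays. Its adjusted p of 0.0296 rested on few arrays, since it was 0.0762, 0.0635 and 0.133 without C replicates 1, 2 and 3, and with the dsRNA arrays exchanged irf10 differed by 0.79 (adjusted p = 0.605). The cytokine-signalling inhibitor socs1a, which restrains JAK kinases, had 4.24, 4.70 and 2.81 in Ti and 1.15, 1.81 and 1.80 in C (difference 2.33 ± 0.48, adjusted p = 0.0369), and stayed called without Ti replicate 3 only (adjusted p between 0.0682 and 0.123 without any one of the others). With the dsRNA arrays exchanged socs1a differed by 1.32 (adjusted p = 0.196), and under scaling by the 50th percentile neither irf10 (0.0959) nor socs1a (0.426) was called.

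Other members of this pathway had positive differences that did not pass the test. The values of irf9, the DNA-binding partner of STAT proteins, differed by 1.22 (adjusted p = 0.133), those of irf1b by 0.85 (adjusted p = 0.198) and those of the interferon gene ifnphi1 by 0.83 (adjusted p = 0.273). In all, 12 of the 19 members had Ti arrays above all C arrays and none had them below, against 8.08% and 8.78% of all transcripts.

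Antiviral effector genes had the highest share of calls among the 33 gene lists examined. Of 19 tested members 10 were higher in Ti (52.6%, against 1.19% of all transcripts), none was lower, and the median difference was 2.72. The list had 30 members on the array, and the filter on dim signal counted the Ti and C arrays together. The genes mxa, mxe and rsad2 passed it through the Ti arrays alone, so that this share and median depend in part on the filter. The Mx GTPases, which trap viral nucleocapsids in mammals, were prominent. The signal of mxb was 3.95, 4.42 and 3.43 on the Ti arrays and -2.44, -1.44 and -3.60 on the C arrays, of which 1 was well above background (fitted difference 6.42 ± 0.72, adjusted p = 0.000579). For mxe the Ti arrays gave 2.63, 2.96 and 3.93, and none of the C arrays was well above background, so that it was at least 22.0-fold higher (fitted difference 5.62 ± 0.39, adjusted p = 9.91e-05). For mxa, with 2.26, 2.62 and 1.75 in Ti and again no detection in C, the increase was at least 11.3-fold (fitted difference 5.0, adjusted p = 0.000117). These genes are close relatives and a probe of one may also bind transcripts of another. Viperin, rsad2, had 1.81, 1.65 and 1.67 in Ti, the most even values of the group, and was not well above background in C (at least 7.97-fold higher, fitted difference 5.05, adjusted p = 0.000566).

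The remaining effectors called were already detected in C on some or all arrays. The galectin-3-binding protein gene lgals3bp.3 had 5.47, 5.92 and 5.40 in Ti and 0.75, 0.83 and -0.64 in C (difference 5.29 ± 0.42, adjusted p = 0.000117). Both tested genes of the ifi27 family in this list, which encodes small interferon-induced proteins, also rose, ifi27.2 with 7.54, 8.31 and 6.96 in Ti against 3.46, 3.57 and 2.81 in C (difference 4.32), and ifi27.1 with 7.91, 8.51 and 9.66 in Ti against 5.07, 5.62 and 4.92 in C (difference 3.49). No array of either group overlapped with the other group, and both probes of each gene gave nearly the same difference (between 4.25 and 4.40 for ifi27.2 and between 3.42 and 3.56 for ifi27.1). The apoptosis-linked gene xaf1 differed by 2.72, the immunity-related GTPase irge4 by 2.65 and the ADP-ribosyltransferase family member parp12b by 1.67, with adjusted p of 0.00240, 0.000579 and 0.0163 in that order. Of the 10, 9 stayed called without any one array, whereas parp12b had adjusted p of 0.0682 and 0.0841 without C replicates 1 and 3, and 0.0660 and 0.0799 without Ti replicates 1 and 2. Under scaling by the 50th percentile ifi27.1 (adjusted p = 0.0503), irge4 (0.332), xaf1 (0.424) and parp12b (0.472) lost their calls, and with the dsRNA arrays exchanged parp12b did (0.0876). Members that did not pass included lgals3bp.1, with 4.71, 5.95 and 1.54 in Ti against 0.64, -0.07 and -0.47 in C (adjusted p = 0.0940), and ifit8 (difference 2.62, adjusted p = 0.305), whose Ti arrays also lay above all C arrays. Among members too dim for the test, herc56.3, from a family of ubiquitin ligases, was well above background on 2 of 3 Ti arrays and on no C array. Its bound came to 7.90-fold, which takes in the uncertain value of the dim Ti array and is not a strict lower limit.

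**Figure D2:**
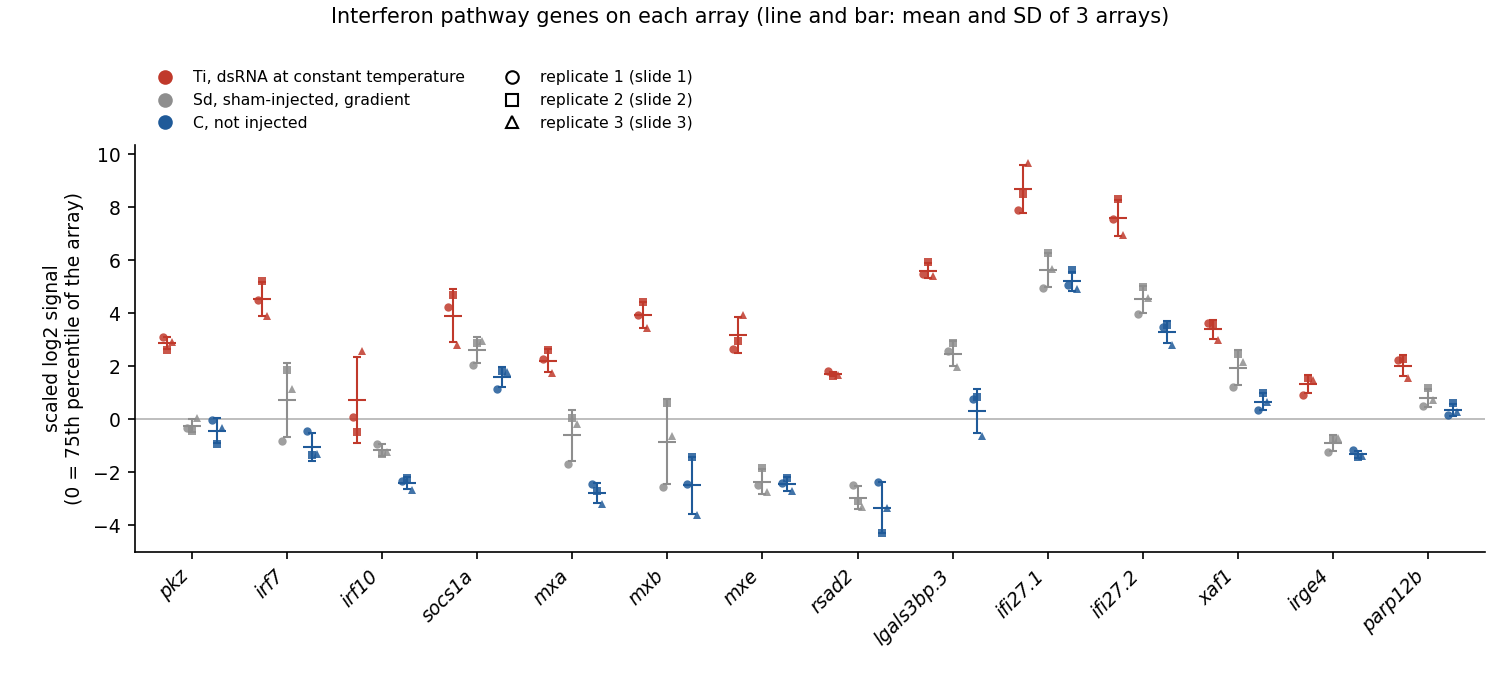
Scaled log2 signal (vertical axis) of 14 genes of the interferon pathway on each Ti, Sd and C array, with the mean and SD of 3 arrays as line and bar and the slide as the symbol shape. For mxe, rsad2 and pkz the Sd arrays lie with the C arrays, whereas for mxa, mxb and irf7 the Sd arrays of slides 2 and 3 lie between the groups.

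Further named genes among the 20 largest rises belonged to several families. The RNA helicase gene mov10b.1 had 3.09, 2.63 and 2.62 in Ti and was not well above background in C (at least 14.6-fold higher, adjusted p = 0.0207). That call was lost without C replicate 2 or 3 or Ti replicate 1 or 2 (adjusted p between 0.0675 and 0.118). The interferon-induced gene ifi44c2 differed by 3.83, the bloodthirsty-related gene btr29 of the TRIM superfamily by 3.41, aste1a by 3.54, cd9r by 3.34, rarres3 by 3.28, the Golgi protein gene tmf1 by 3.21 and zgc:158701 by 3.2. The Ti arrays of btr29 (2.28, 2.58 and 1.75) stood far above its C arrays (-1.36, -0.71 and -1.56), of which 1 was well above background. The list of TRIM and finTRIM families had a median difference of 0.06, and -0.56 under scaling by the 50th percentile. Of its 22 tested members btr29 alone was called. That call was 4.55% of the list, against 1.19% of all transcripts. For rarres3 and tmf1 the call was not kept without C replicate 1 (adjusted p = 0.0534 for each) or C replicate 3 (0.0678 for rarres3 and 0.0817 for tmf1), nor for rarres3 without Ti replicate 2 (0.0602). With the dsRNA arrays exchanged rarres3 differed by 1.55 (adjusted p = 0.195) and tmf1 by 1.11 (0.389). The other genes of this group were called without any one array, but under scaling by the 50th percentile aste1a (0.0652), ifi44c2 (0.0959), zgc:158701 (0.176) and btr29 (0.179) lost their calls, as did tmf1 (0.123) and rarres3 (0.294).

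Complement was the other list with a high share of calls, 4 of 9 tested members (44.4%, against 1.19% of all transcripts), with a median difference of 2.01. The list had 21 members on the array. All genes for the C1q subunits, which start the classical pathway, rose. The signal of c1qa was 1.81, 1.48 and 1.51 in Ti and -1.62, -1.73 and -1.68 in C, with very little spread in either group (difference 3.28 ± 0.30, adjusted p = 0.000119). It was well above background on 1 C array only, so that this difference and the small spread in C rest on C values mostly near background. For c1qb it was 2.96, 3.66 and 3.54 in Ti and 0.47, 0.72 and 0.69 in C (difference 2.76 ± 0.28, adjusted p = 0.000282). For c1qc it was 4.47, 5.54 and 5.23 in Ti and 2.62, 3.29 and 3.29 in C (difference 2.01 ± 0.39, adjusted p = 0.0296). The groups did not overlap for any subunit. Under scaling by the 50th percentile the differences of c1qa, c1qb and c1qc were 2.65, 2.13 and 1.39 and none was called, with adjusted p of 0.0959 for c1qa. The factor B-like gene cfbl, of the alternative pathway, differed by 2.35 (adjusted p = 0.0377), while cfd (0.997, adjusted p = 0.170) and clu (-0.30, adjusted p = 0.751) did not pass. Without any one array c1qa and c1qb stayed called, whereas c1qc was called only without Ti replicate 1, and cfbl only without Ti replicate 3, with adjusted p of up to 0.110 for c1qc (without Ti replicate 2) and 0.157 for cfbl (without C replicate 3).

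Some genes of microglia and leukocytes were higher in Ti. Of 26 members tested, 6 were called higher (23.1%, against 1.19% of all transcripts) and none lower, 25 of the differences were positive and the median was 1.24. The actin regulator coro1a of leukocytes had 5.1, 5.94 and 5.44 in Ti and 3.75, 4.1 and 3.92 in C. The macrophage perforin gene mpeg1.1 had 2.52, 2.75 and 2.95 in Ti and 1.67, 1.33 and 1.51 in C. Both pairs of groups stood apart without overlap (differences 1.57 ± 0.32 and 1.24 ± 0.26, adjusted p = 0.0362 and 0.0436). The macrophage-associated matrix gene mfap4.1 (2.28), the progranulin family gene grna.2 (2.04), the chemokine receptor gene cxcr3.2 (1.84) and the haematopoietic GTPase gene rac2 (1.62) were also called. Under scaling by the 50th percentile no member was called and the median was 0.61. Of these 6, only cxcr3.2 stayed called without any one array, and it was well above background on 2 Ti arrays and 1 C array only. The highest adjusted p of the others, each without C replicate 3, lay between 0.118 for grna.2 and 0.157 for mpeg1.1. With the dsRNA arrays exchanged rac2 lost its call (0.111).

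A shorter set of markers of microglia and macrophages, which shares genes with that list, was also summed. Their summed linear signal, each gene relative to the 75th percentile of its array, was 70.8, 89.4 and 63.8 on the Ti arrays and 31.7, 28.3 and 26.5 on the C arrays, over 5 tested markers of which 3 were called higher (csf1ra, the receptor that defines these cells, was not well above background). The Sd arrays gave 99.6, 107.2 and 83.0, a range that overlapped that of the Ti arrays. The called markers were coro1a, mpeg1.1 and mfap4.1, the same genes as above, so that the sum is not separate support. It is weighted towards coro1a, its marker of highest signal. The markers lcp1 (difference 1.09, adjusted p = 0.236) and spi1b (0.07, adjusted p = 0.968) were not called. In a bulk sample more cells of a type and more RNA per cell cannot be told apart. Marker sums of neurons were 59.8, 60.6 and 70.12 in Ti and 138, 65.7 and 109 in C, those of oligodendrocytes 21.1, 25.5 and 12.5 in Ti and 33.0, 33.8 and 53.7 in C, and those of radial glia 55.7, 75.4 and 50.6 in Ti and 114, 77.3 and 129 in C. The sums overlapped between Ti and C for neurons and did not for the other cell types, and none of the tested markers of these 3 cell types passed the test. The Sd sums were 83.7, 62.8 and 58.0 for neurons, 24.5, 40.9 and 26.8 for oligodendrocytes, and 72.8, 72.6 and 50.2 for radial glia. Their range overlapped that of Ti for each cell type, and that of C for neurons and oligodendrocytes but not for radial glia. The part of cell composition in the rises was not tested.

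A small number of chemokine ligands and receptors rose. The list of cytokines and chemokines had 26 of 55 members bright enough to test, of which 3 were higher (11.54%, against 1.19% of all transcripts) and none lower (median 0.73), and under scaling by the 50th percentile none was called (median 0.11). The chemokine gene ccl34b.4 had 1.73, 1.05 and 2.19 in Ti and -1.15, -1.95 and -0.84 in C, without overlap (difference 2.97 ± 0.52, adjusted p = 0.0131, and 0.0561 without C replicate 2). The gene il34, whose product is a ligand of the CSF1 receptor and maintains microglia in mammals, had 2.16, 2.32 and 1.94 in Ti and 0.72, 0.70 and 0.55 in C, both tight groups (difference 1.48 ± 0.26, adjusted p = 0.0148, and up to 0.0824 without C replicate 3). The receptor cxcr3.2 had 0.55, 0.46 and 0.35 in Ti and -1.04, -1.62 and -1.51 in C (adjusted p = 0.00547), and part of these values were not well above background. On the Sd arrays ccl34b.4 had 2.31, 0.82 and 0.49, which overlapped its Ti arrays and lay above its C arrays. For il34 and cxcr3.2 the Sd arrays lay between the groups. The inflammatory cytokine genes il1b, tnfa and il10 were among those too dim to test. Genes of the NF-kappa-B pathway gave no call among 17 tested (median 0.18, and -0.45 under scaling by the 50th percentile), with mmp9 (1.11, adjusted p = 0.188) and caspb (0.94, adjusted p = 0.267) the nearest, and genes of the acute phase and iron gave none among 10 (median 0.22, and -0.41 under that scaling).

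In antigen presentation no member was called. Of 18 tested members 17 had a positive difference and the median was 0.75. The proteasome activator genes psme2 (difference 1.19, adjusted p = 0.0519) and psme1 (difference 2.28, adjusted p = 0.118) came nearest. Their Ti arrays lay above all C arrays, as did those of 6 of the 18 members in all, against 8.08% of all transcripts. For psme2 the Ti arrays had 4.37, 4.24 and 4.49 and the C arrays 3.32, 2.87 and 3.32. The immunoproteasome subunit genes psmb8a (0.63) and psmb9a (0.52) overlapped between the groups. In the constitutive proteasome, psma6l alone was called of 38 tested (difference 1.47, adjusted p = 0.0493, up to 0.168 without C replicate 3 and 0.104 with the dsRNA arrays exchanged), and 35 of the differences were positive with a median of 0.42, which became -0.20 under scaling by the 50th percentile, where the median of all transcripts was -0.72. The cathepsin gene ctsz was the only lysosomal gene called of 26 (difference 1.39, adjusted p = 0.0296, and up to 0.149 without C replicate 3). These single calls were 2.63% of the tested constitutive proteasome genes and 3.85% of the lysosomal genes, against 1.19% of all transcripts. For psma6l (3.46, 4.11 and 3.87) and ctsz (1.95, 2.29 and 1.69) the Sd arrays also overlapped the Ti arrays and lay above the C arrays.

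Genes for the replication helicase were higher in Ti than in C. The MCM proteins form the hexamer that unwinds DNA in S phase, and mcm2, mcm3 and mcm6 were the 3 members called of 41 tested in the list of cell cycle and DNA replication. Those calls were 7.32% of the tested members, against 1.19% of all transcripts. In that list 36 differences were positive and the median was 0.74, and under scaling by the 50th percentile the median was 0.12 with no call. The signal of mcm6 was 2.02, 2.25 and 2.24 in Ti and 0.51, 0.50 and 0.73 in C (difference 1.59 ± 0.25, adjusted p = 0.00808). That of mcm3 was 0.56, 1.01 and 0.92 in Ti and -1.53, -0.92 and -1.51 in C (difference 2.15 ± 0.36, adjusted p = 0.0101). The rise of mcm6 was even over the Ti arrays. Values of mcm3 were close within each group, but it was well above background on 2 Ti arrays and 1 C array only. Those of mcm2 varied in C (2.90, 3.31 and 3.62 in Ti, and -0.65, 1.55 and 1.00 in C, adjusted p = 0.0487). Of the 3 genes, only mcm6 stayed called without any one array, and under normexp background correction it was not called (adjusted p = 0.622). The others had adjusted p of up to 0.0606 for mcm3 and 0.128 for mcm2 without C replicate 3, and mcm2 lost its call with the dsRNA arrays exchanged (0.0558). Mitotic genes such as cdk1 (1.65, adjusted p = 0.163) and cdca8 (2.07, adjusted p = 0.212) did not pass. The Sd arrays had 1.72, 2.24 and 2.00 for mcm6, 0.69, 1.82 and 1.11 for mcm3, and 1.54, 3.51 and 2.88 for mcm2. For each of these genes they overlapped the Ti arrays.

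**Figure D3:**
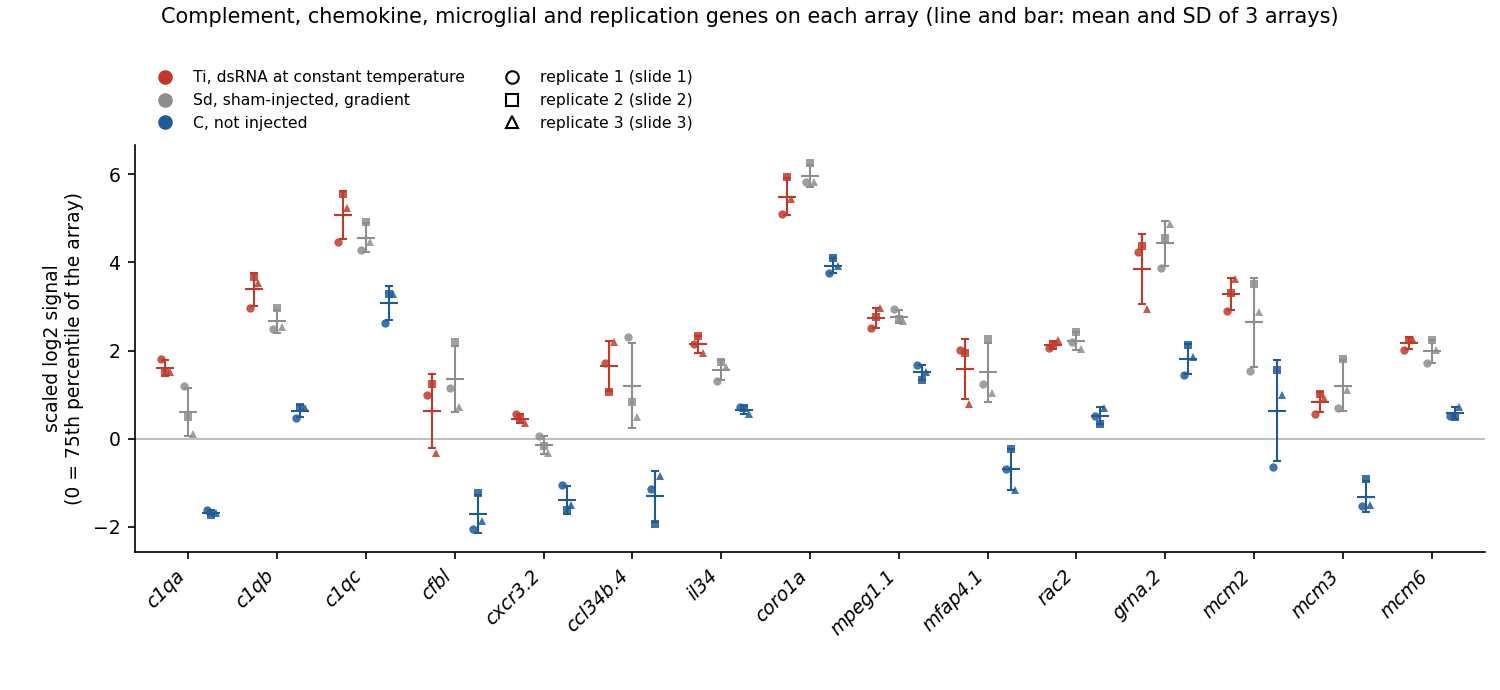
Scaled log2 signal (vertical axis) of 15 complement, chemokine, microglial and replication genes on each Ti, Sd and C array, with the mean and SD of 3 arrays as line and bar. The Sd arrays lie near the Ti arrays and above the C arrays for coro1a, mpeg1.1, rac2 and mcm6, and between them for c1qa and il34.

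The position of the arrays of saline-injected fish in a gradient is described here for these groups of genes. For 92 of the 148 transcripts higher in Ti, every Sd array lay below every Ti array, and for 86 of the 148 every Sd array lay above every C array. These transcripts were called for high Ti and low C values, and that choice by itself favours Sd arrays below Ti and above C. The shares over all transcripts were not counted, so that these counts and those of the lists are description only. The lists also differ in size of difference, between 1.67 and 6.42 for the called effectors and between 1.24 and 2.28 for the called microglia and leukocyte genes. A larger difference by itself makes it easier for Sd arrays to lie below all Ti arrays, so that the lists cannot be ranked by these counts. Among the called antiviral effectors, the Sd arrays were below all Ti arrays for 10 of 10, and above all C arrays for 4 of 10. Among the called complement genes the counts were 1 of 4 below all Ti arrays and 4 of 4 above all C arrays, and among the called microglia and leukocyte genes 1 of 6 and 6 of 6. Among the called genes of the cell cycle and DNA replication they were 0 of 3 and 2 of 3. For example, coro1a had 5.82, 6.25 and 5.83 on the Sd arrays, within or above its Ti values, whereas rsad2 had -2.48, -3.07 and -3.32 there, within its C values. The injection and the gradient differ together between Sd and C, and their shares cannot be told apart. The difference between Ti and Sd was not tested here.

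Transcripts lower in Ti were few. The deepest falls were those of fabp1b.1, a fatty acid-binding protein gene of intestine and liver, of chia.3, which encodes an acidic chitinase, and of s100a10a, for a calcium-binding protein. On the Ti arrays fabp1b.1 had -4.93, -3.27 and -1.07, on none of them well above background, and on the C arrays it had 0.15, 4.76 and 4.73. C replicate 1 thus lay far below the other C arrays, and the fall was at least 18.2-fold in the mean (fitted difference -6.30 ± 1.36, adjusted p = 0.0471). The values of chia.3 were -2.32, -2.46 and 0.04 in Ti and 2.00, 5.97 and 5.47 in C (at least 39.8-fold lower, adjusted p = 0.0326), and those of s100a10a were -4.08, -3.34 and -1.41 in Ti and 1.03, 3.86 and 3.19 in C (at least 12.7-fold lower, adjusted p = 0.0487). In all 3 genes C replicate 1 was the lowest of its group. Their calls were lost without C replicate 2 or 3, or Ti replicate 1 or 2, with adjusted p of up to 0.207 for fabp1b.1, 0.156 for chia.3 and 0.197 for s100a10a.

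Other genes of digestive organs also varied widely among the arrays, each with its own pattern. In a list of 18 intestinal genes that was added after these values were seen, 13 were on the array and 9 were tested. Their summed linear signal was 31.0, 1.46 and 4.68 on the Ti arrays and 9.78, 196 and 142 on the C arrays, and fabp1b.1 and chia.3 were the 2 called. The trypsinogen gene prss1 had -0.56, -1.10 and -1.29 in Ti and 1.42, 5.56 and -0.04 in C, with C replicate 2 far above the other arrays (adjusted p = 0.152). The liver fatty acid-binding protein gene fabp10a had 6.74, -3.02 and 1.53 in Ti and 0.86, 5.04 and -2.61 in C, high on Ti replicate 1 and C replicate 2. High values of these genes thus lay on some arrays of either group, and their part in the falls was not tested.

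Heat-shock genes were also among the named falls. The inducible Hsp70 gene hspa1b had -4.87, -3.37 and -1.29 in Ti, where no array was well above background, and 0.39, 2.18 and 2.09 in C (at least 5.75-fold lower, fitted difference -4.73 ± 0.88, adjusted p = 0.0219). The small heat-shock gene hspb1 had 3.63, 3.36 and 2.5 in Ti and 4.81, 5.36 and 5.47 in C (difference -2.05 ± 0.45, adjusted p = 0.0487). For both genes the Sd arrays were higher still, with 3.91, 2.40 and 4.92 for hspa1b and 7.19, 6.60 and 7.54 for hspb1. The Ti arrays were thus the lowest of these 3 groups. The calls were lost without single arrays, with adjusted p of up to 0.118 for hspa1b and 0.205 for hspb1 without C replicate 3, and with the dsRNA arrays exchanged hspa1b differed by -1.37 (adjusted p = 0.511) and hspb1 by 0.041 (0.978). Under scaling by the 50th percentile hspb1 also lost its call (0.262). Only these 2 of 40 tested members of the heat shock and co-chaperone list were called, and the median of the list was -0.25. Those falls were 5% of the list, against 0.16% of all transcripts. The next member, hsp90aa1.1, was not well above background in Ti and at least 2.70-fold lower (adjusted p = 0.0739).

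The remaining named falls included a keratin gene and several of smaller size. The keratin gene krt92 had 0.44, -0.48 and -0.71 in Ti and 2.94, 3.90 and 4.44 in C (difference -4.01 ± 0.66, adjusted p = 0.00927, and 0.0576 without C replicate 3). The other keratin and epidermal genes included a rise, that of the mucous-cell gene agr2 (difference 1.64, adjusted p = 0.0433, and up to 0.128 without Ti replicate 2). On the Sd arrays agr2 had 2.87, 3.60 and 3.19, above every Ti array. The triglyceride synthesis gene dgat1a had -0.58, -0.94 and -0.74 in Ti and 0.71, 1.40 and 0.83 in C (difference -1.73, adjusted p = 0.00958, and 0.0522 without Ti replicate 2). Its values were close within each group, but that on Ti replicate 3 lay below the dimmest feature well above background there (0.86). Differences between -1.98 and -1.38 were found for mettl21e, col11a2, cap2, tmx2a, usp13, fxyd6 and lyrm1. With the dsRNA arrays exchanged the calls of krt92 (adjusted p = 0.0568), dgat1a (0.234), mettl21e, col11a2, tmx2a, usp13, fxyd6 and lyrm1 were lost, as was the rise of agr2 (0.0778). None of the 14 named falls stayed called without each array in turn, against 22 of 43 named rises.

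**Figure D4:**
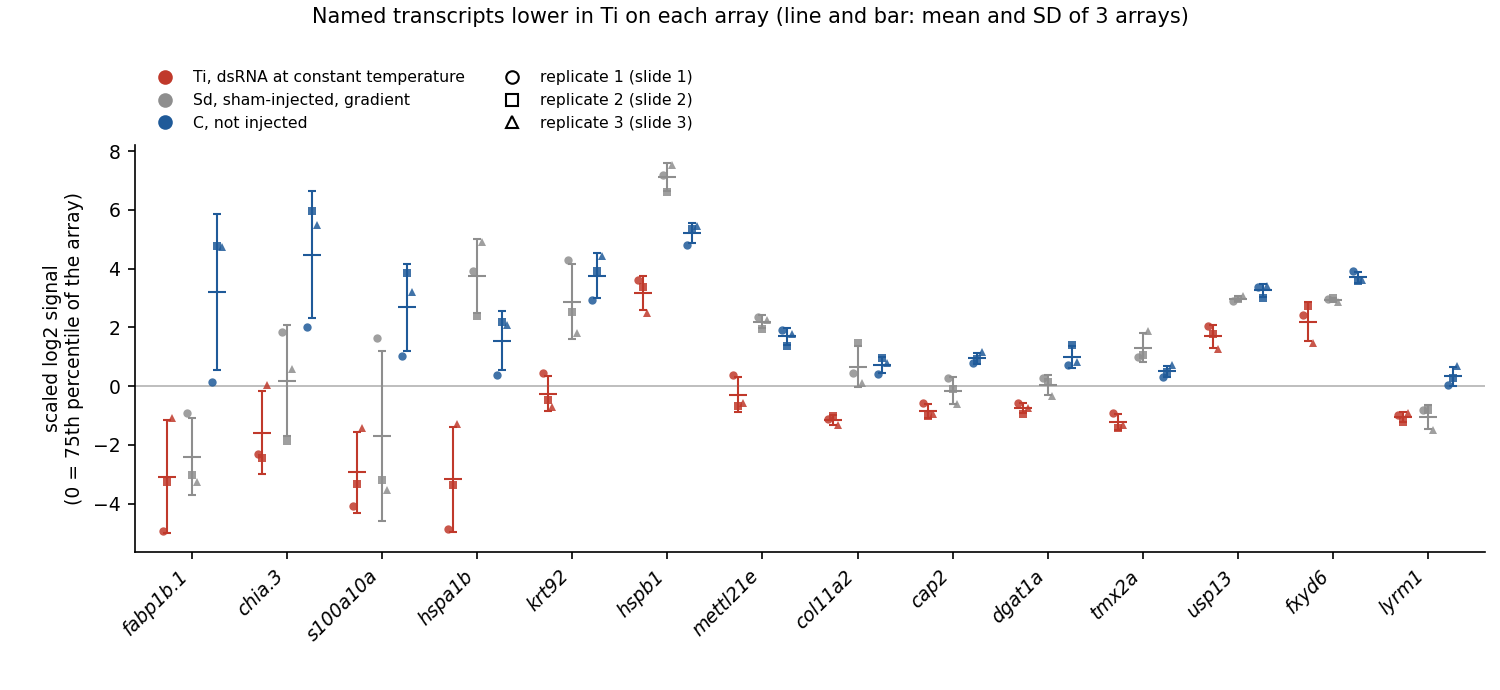
Scaled log2 signal (vertical axis) of the 14 named transcripts lower in Ti on each Ti, Sd and C array, with the mean and SD of 3 arrays as line and bar. For fabp1b.1, chia.3 and s100a10a the C array of slide 1 lies below the C arrays of slides 2 and 3, and for hspa1b and hspb1 the Sd arrays lie above both other groups in the mean.

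Neuropeptide, synaptic, respiratory chain and muscle genes gave no call in either direction, with differences that were mostly negative. All 22 tested neuropeptide genes had a negative difference (median -0.86), and the histamine synthesis gene hdc came nearest to the threshold, with -0.21, -0.22 and -1.32 in Ti and 0.86, 0.86 and 1.11 in C (difference -1.53 ± 0.34, adjusted p = 0.0519). Of 37 synaptic genes 32 were negative (median -0.57), of 65 respiratory chain genes 62 (median -0.46), and of 44 muscle contractile genes 36 (median -0.66), the last led by tpma (difference -2.39, adjusted p = 0.0541). These medians lie beside -0.09 for all transcripts. Within the slides they were uneven: the neuropeptide median was -0.77, -0.26 and -1.60 on slides 1 to 3 and the synaptic median -0.65, -0.08 and -0.77, where the median of all transcripts was -0.08, 0.15 and -0.32. The ribosomal protein list, with 79 members tested and no call, had a median of 0.01 over the groups (-0.61 under scaling by the 50th percentile) and of -1.05, 0.11 and 1.01 on the 3 slides.

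In the myelin and glia list, which holds 23 tested genes and had a median of -0.45, the brain fatty acid-binding protein gene fabp7b was the one call and it was a rise (2.40, 1.41 and 1.24 in Ti against -0.76, -0.36 and -0.20 in C, adjusted p = 0.00816, called without any one array in turn and not under scaling by the 50th percentile). Of 40 tested photoreceptor and pineal genes, 35 had a positive difference, with a median of 0.46 that became -0.16 under scaling by the 50th percentile, and the cone arrestin gene arr3a was called (4.0, 4.77 and 4.36 in Ti against 1.19, 2.39 and 0.94 in C, adjusted p = 0.0303, and up to 0.150 without C replicate 3). With the dsRNA arrays exchanged arr3a differed by 0.96 (adjusted p = 0.454). The marker sum of photoreceptors and lens was 83.4, 116 and 77.1 in Ti and 69.1, 61.4 and 28.1 in C. The Sd sums were 71.4, 118 and 79.0, which overlapped those of Ti and lay above those of C. The lipid and sterol synthesis list held 1 rise, fabp7b, and 1 fall, fabp1b.1, among 36 tested genes (median -0.22). The single rises were 4.35%, 2.5% and 2.78% of the myelin, photoreceptor and lipid lists, in that order, against 1.19% of all transcripts. The single fall was 2.78% of the lipid list, against 0.16% of all transcripts. Lists of endoplasmic reticulum stress (24 tested), immediate-early (35), glucocorticoid response (15), core clock (20), pituitary hormone (4), ion channel (8), haemoglobin and erythrocyte (13), endothelial (8), prostaglandin (9) and cholinergic and adrenergic receptor genes (6) held no call.

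**Figure D5:**
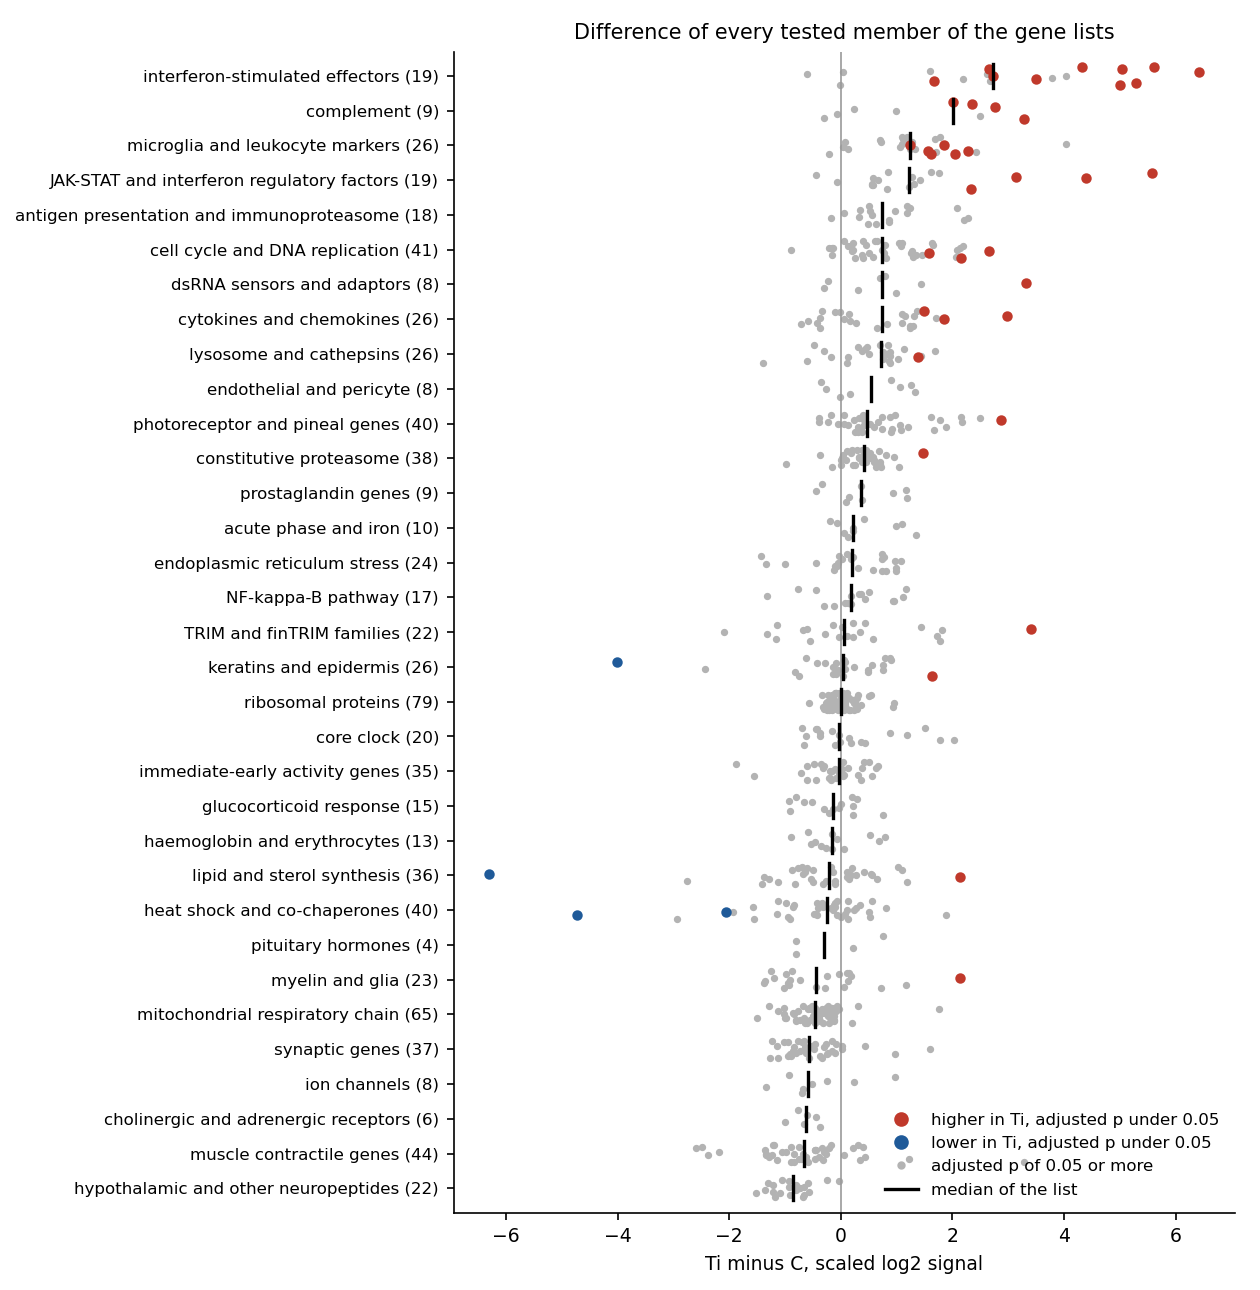
Difference between Ti and C in scaled log2 signal (horizontal axis) of every tested member of 33 gene lists, with the number tested in brackets, the list median as a black line and called members in colour. Called rises gather in the interferon effector, complement, microglia and JAK-STAT lists, and the lists at the bottom, such as neuropeptides and muscle, have negative medians and no call.

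Some genes followed by the study were dim or did not pass the test. The ubiquitin ligase gene trim25 was well above background on 1 of 3 Ti arrays and no C array, and the antiviral gene gig2p on 2 of 3 Ti arrays and no C array. Neither was tested. Their bounds came to 1.04-fold and 1.16-fold, which take in uncertain values of dim Ti arrays and are not strict lower limits. Somatostatin, sst1.1, had 2.60, 2.72 and 3.06 in Ti and 3.51, 3.52 and 4.17 in C, without overlap (difference -0.93 ± 0.30, adjusted p = 0.168). The acetylcholinesterase gene ache had 0.66, 1.11 and 2.1 in Ti and 1.45, 1.26 and 2.26 in C, which overlapped (difference -0.37, adjusted p = 0.706). The receptor gene chrna7a was not well above background on any of the 6 arrays, and sst2 was so on no Ti array and 1 C array.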

How the data were processed

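Brain RNA of 4 groups was hybridised in 1 colour to 12 arrays, grouped here by their labels. The authors deposited scanner output with intensity values on a linear scale, of which the processed signal was corrected for background and spatial trend but not set to a common scale. The deposited tables, headed log2, hold the natural log of background-subtracted signals (tolerance 0.001). All 12 tables of single samples equalled their own scanner output, while 6 columns of the table of the whole series equalled an array from the other group given dsRNA. Array design and software version in the file headers differ from those in the study's methods.

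Outlier spots were left out, repeated features of a probe were averaged, and each array's 75th percentile over non-control probes was subtracted from its log2 processed signal. Of 43603 probes, 14636 passed the filter on dim signal (3 or more of the 6 arrays well above background). Symbols came from RefSeq accessions matched to the GRCz12tu gene table (16568 probes), and probes of a gene were joined by the median. The 12463 transcripts were fitted in limma 3.58.1 (R 4.3.3), tested on simulated data, with 4 groups in 1 model (8 residual degrees of freedom), contrast Ti minus C. P-values measure the spread between pools, which may be partly technical, since nothing states that pools came from separate tanks. A fold bound sets the detected group's mean against, per dim array, the larger of the probe's own value and the dimmest value called above background, as means of log2 values. Dim arrays of the detected group entered its mean at their own values, and in that case the bound is not a strict lower limit. Named genes are the 20 largest rises and 15 largest falls with a symbol, a call and no overlap (14 such falls exist), the called members of each list or else its 2 lowest p-values, and genes the study followed. Other members serve as examples chosen after their values were seen. Members and lists were chosen with earlier results of these data known. With 3 arrays per group, the number of arrays limits the precision. Alternatives covered scaling, background correction, filter, replicate block, array weights, the arrays fitted and the threshold. A planned count of promoter motifs was not run. Some genes of the lists are not reported here by name.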

Additional observations from a re-analysis of the deposited data

How the results depend on the processing

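All named rises and all named falls kept their direction under every alternative that gave a value, except hspb1, which differed by 0.0414 with the Ti and Td arrays exchanged. The counts of calls moved more. Against 148 higher and 20 lower, scaling by the 50th percentile gave 24 and 13 (the median of all transcripts became -0.72), normexp background correction on the median signals 34 and 2, no filter on dim probes 45 and 0 (limma, with 2036 transcripts at an unadjusted p under 0.05), probes above background on all 6 arrays 78 and 7, the 6 arrays alone 62 and 4, array weights 315 and 84, the deposited natural log values gave 65 and 2, and an unadjusted p under 0.01 gave 458 and 259. The named rises that lost their calls under normexp correction included c1qc (adjusted p = 0.539), grna.2 (0.659), ctsz (0.686), mpeg1.1 (0.707) and coro1a (0.727). Under it irf7 (0.0318) and lgals3bp.3 (0.00724) kept theirs. The share of rises among the calls was 88.1% as reported, 64.9% with the 50th percentile, 85.2% with quantile normalization and 78.9% with array weights. With the Ti and Td arrays exchanged 249 were higher and 22 lower, of which 89 and 4 were shared with the calls as reported. Keeping probes above background on at least 3 of all 12 arrays, chosen after seeing the data, gave 190 and 13, and scaling by the median of probes detected on all 12 arrays, also chosen after seeing the data, 156 and 28. Without any one array the counts lay between 78 and 210 higher and between 2 and 33 lower. The highest were without Ti replicate 3, the dimmest array, and the lowest without C replicate 3. The cause of these shifts was not tested.

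The replicate number is the slide. As a block it gave 236 higher and 48 lower over 4 groups and 79 and 15 over the 6 arrays, and 146 and 17 of the calls as reported were kept over 4 groups. Deviations of same-numbered Ti and C arrays correlated at 0.12, 0.21 and 0.08, and those of arrays with different numbers between -0.18 and 0.05. Each same-numbered pair thus lay above every pair of different numbers. Whether this comes from the slide or from a pairing of the samples was not tested. The motif count could not be run.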
